A study of Arabidopsis thaliana with 38 samples.

Results

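The ARGONAUTE family of Arabidopsis thaliana is described here across the early embryo. Its 10 genes, AGO1 to AGO10, were taken by locus identifier from a table of 27826 loci, and each had 1 value on each of 38 arrays. The loci were AGO1 (AT1G48410), AGO2 (AT1G31280), AGO3 (AT1G31290), AGO4 (AT2G27040), AGO5 (AT2G27880), AGO6 (AT2G32940), AGO7 (AT1G69440), AGO8 (AT5G21030), AGO9 (AT5G21150) and AGO10 (AT5G43810). No measured value was used to pick single members, but the family was chosen with earlier results of these data known.

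The study profiled nuclear RNA from the cell types of the embryo on 1-colour arrays at 3 times after hand pollination. Nuclei were isolated with INTACT, in which nuclei of a chosen cell type carry a tag and are pulled out by it. The earliest groups, at 72 h and the 16-cell stage (16C), were cells of the inner lower tier, ILT_16C with 3 arrays, and the embryo, EMB_16C with 3 arrays. At 81 h, early globular (EG), there were the vascular cells (VSC_EG, 4 arrays), the ground tissue (GSC_EG, 4 arrays), the suspensor (SUS_EG, 3 arrays) and the embryo (EMB_EG, 4 arrays). At 100 h, late globular (LG), there were the vascular cells (VSC_LG, 4 arrays), the ground tissue (GSC_LG, 3 arrays), the suspensor (SUS_LG, 3 arrays), the QC (QC_LG, 3 arrays), which is the quiescent centre of the root pole, and the embryo (EMB_LG, 4 arrays). Each array was a pool, every group carried the tagging system, and the promoter that tagged each cell type is not named in the labels.

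ARGONAUTE proteins hold a small RNA and use it to find a matching RNA or DNA-bound transcript. In plants, AGO1 and its close relatives AGO5 and AGO10 work mainly with microRNAs, AGO2, AGO3 and AGO7 form a second clade with roles in defence and in trans-acting small interfering RNAs, and AGO4, AGO6, AGO8 and AGO9 form the clade of RNA-directed DNA methylation. In the embryo AGO1 and AGO10 both act on the levels of class III homeodomain leucine zipper (HD-ZIP III) transcription factors, which pattern the shoot pole and the vascular cells.

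All values are log2 of the deposited intensity, and a difference of 1 is a doubling. Array medians lay between 2.47 and 2.71, and the interquartile range of an array, here called its spread, ran from 1.03 (QC_LG array 2) to 2.10 (ILT_16C array 1). The GSC_LG arrays were wide, with a spread of 1.51 to 2.06, and the QC_LG arrays narrow, at 1.03 to 1.42. Of 5 ground tissue markers, 4 were higher and 1 lower in GSC_LG than in EMB_LG, with a median difference of 0.22. Of these, 0 passed the test, and SCR, which differed most, averaged 5.53 against 3.85 (limma, adjusted p = 0.0854). In GSC_EG, 2 of the 5 were higher and 3 lower than in EMB_EG, with a median difference of -0.34. SCR averaged 3.12 in GSC_EG against 3.46 in EMB_EG (adjusted p = 0.813), so the label of GSC_EG was not borne out by it. Of 4 QC markers, 2 were higher and 2 lower in QC_LG than in EMB_LG, with a median difference of -0.15, and none passed the test; WOX5 averaged 3.63 against 2.50 (adjusted p = 0.153), and PLT2 differed by -0.94 (adjusted p = 0.5). The suspensor markers WOX8 and WOX9 did not pass the test in either suspensor group. The mean of 7 seed coat genes ran by group from 3.94 in GSC_LG to 5.22 in SUS_LG, above every array median. Over all arrays these genes ranged widely among loci. TT10 and TT16 were at percentiles 46.9 and 50.9, and BAN, which the embryo is not known to use, and TT4 at 99.2 and 99.8. The mean of 7 endosperm genes lay near or below the array median. AGO8 was under the array's own median on 23 of 38 arrays, AGO6 on 17, AGO10 on 12 and AGO7 on 9, and the other 6 members on 0.

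Over the 11 groups, 2 of the 10 genes varied by limma's moderated F test, with Benjamini-Hochberg adjustment over all loci: AGO4 (adjusted p = 0.00304) and AGO10 (adjusted p = 0.00926). Of all loci, 9.56% passed the same test. AGO6 came next (adjusted p = 0.0526), followed by AGO2 (0.0854), AGO1 (0.0897) and AGO3 (0.108), and the adjusted p of AGO5, AGO7, AGO8 and AGO9 was 0.226 or more. The highest group mean lay in GSC_LG for AGO1, AGO2, AGO4, AGO6, AGO7 and AGO10, in SUS_LG for AGO3 and AGO5, in SUS_EG for AGO9 and in VSC_LG for AGO8. GSC_LG held the highest mean for 12.6% of all loci and for 19.9% of those whose mean was above that of the median locus, so that 6 of 10 stands against those shares.

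**Figure D1:**
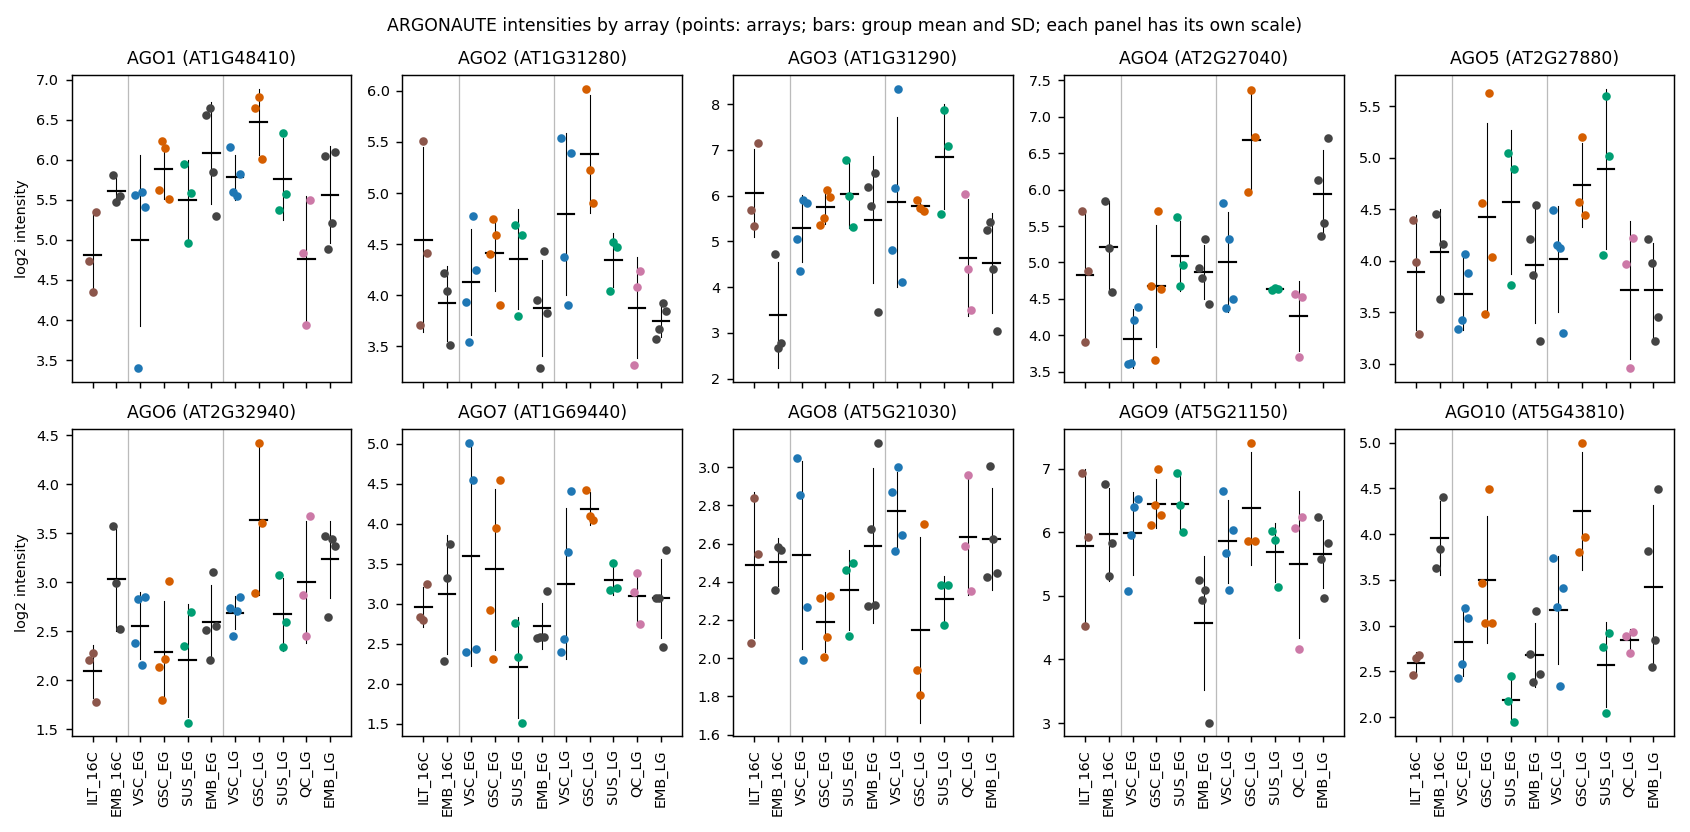
Each panel shows 1 ARGONAUTE gene, with the 11 groups in order of time on the horizontal axis and log2 intensity on the vertical axis; points are arrays, thick bars group means and thin bars 1 SD. AGO4 has its highest mean in GSC_LG (arrays at 5.97 to 7.37) and AGO10 its lowest in SUS_EG (arrays at 1.95 to 2.45); neighbouring groups in order of mean overlap for every gene but AGO4, where SUS_LG and QC_LG do not.

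AGO4 binds the small RNAs that direct DNA methylation to transposons and repeats, and it had the most called differences of the family. Its log2 intensity on the 3 GSC_LG arrays was 5.97, 7.37 and 6.72. On the 4 EMB_LG arrays it was 6.13, 5.36, 5.54 and 6.71, and on the 4 VSC_LG arrays 5.82, 4.38, 5.32 and 4.50. All GSC_LG arrays were above all VSC_LG arrays, and they overlapped with EMB_LG. The SUS_LG arrays read 4.62, 4.66 and 4.63, the QC_LG arrays 4.57, 3.70 and 4.52, and the early ground tissue arrays (GSC_EG) 4.68, 3.66, 5.71 and 4.63. None of these 10 arrays reached the lowest GSC_LG array. From GSC_EG to GSC_LG, 6.03% of all loci rose without overlap. In order of group mean, GSC_LG (6.69 ± 0.70, SD, n = 3) and EMB_LG (5.94 ± 0.61, n = 4) led, and the lowest were SUS_LG (4.64 ± 0.018, n = 3), QC_LG (4.27 ± 0.49, n = 3) and VSC_EG (3.95 ± 0.40, n = 4). Of the 10 pairs of neighbours in that order, 9 overlapped, and SUS_LG and QC_LG did not.

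AGO4 rose in the ground tissue between 81 h and 100 h by 2.02 on the log2 scale (SE 0.45, 4.04-fold, limma, adjusted p = 0.0125). At 100 h it was lower in the suspensor than in the ground tissue, by a difference of -2.05 (SE 0.48, adjusted p = 0.0231), and lower in the QC than in the ground tissue, by -2.42 (SE 0.48, adjusted p = 0.0049). It was also lower in the QC than in the embryo at 100 h, by -1.67 (SE 0.45, adjusted p = 0.0461), the only member called there, against 1.5% of all loci. The difference of vascular cells from ground tissue at 100 h, -1.68 (SE 0.45), missed the threshold (adjusted p = 0.0503), and 0 of 10 members were called there, against 1.24% of all loci. These comparisons share arrays: all but QC_LG against EMB_LG rest on the same 3 GSC_LG arrays. In a bulk sample such as this, fewer nuclei of a type that holds the RNA and less RNA in each nucleus cannot be told apart.

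The rise of AGO4 in the ground tissue missed the threshold without GSC_EG array 2 (1.68, adjusted p = 0.0657), GSC_LG array 2 (1.67, adjusted p = 0.148) or GSC_LG array 3 (2.00, adjusted p = 0.052). The difference of QC_LG from GSC_LG missed it without GSC_LG array 2 (-2.08, adjusted p = 0.0507). Between 81 h and 100 h the AGO4 mean also rose in the embryo, from 4.86 to 5.94, and in the vascular cells, from 3.95 to 5.01. Neither rise was called in the fit without a covariate. The embryo arrays did not overlap, and 2.45% of all loci rose there likewise. In the suspensor the mean went from 5.09 to 4.64. The ground tissue's rise beyond that of the embryo was not called. Over the same interval of time the ground tissue markers moved too: the mean of 5 such genes was 2.21 to 2.73 on the GSC_EG arrays and 3.51 to 3.99 on the GSC_LG arrays, and SCR was higher by 2.41 (adjusted p = 0.00269). The mean of 8 stress genes was 5.34 to 6.76 in GSC_EG and 4.86 to 5.48 in GSC_LG, and that of 7 seed coat genes 4.33 to 4.94 and 3.89 to 3.98. The part of the markers in the rise of AGO4 was not tested. The array spreads of the 2 groups overlapped, and with the spread as a covariate the AGO4 rise in the ground tissue was 1.89 (adjusted p = 0.00174).

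AGO6, which works beside AGO4 in RNA-directed DNA methylation, was called in the same stage comparison. Its log2 intensity was 2.13, 1.80, 2.22 and 3.01 in GSC_EG and 2.89, 4.42 and 3.60 in GSC_LG, and the groups overlapped at 1 array of each. The rise was 1.35 (SE 0.36, 2.55-fold, limma, adjusted p = 0.0442). With AGO4, these were 2 of 10 members called in that comparison, against 1.47% of all loci. Without GSC_LG array 2 the AGO6 rise was 0.96 (adjusted p = 0.375), and it also missed the threshold without GSC_EG array 1, 2 or 3 or GSC_LG array 3 (1.18 to 1.37, adjusted p = 0.0749 to 0.141), or without EMB_EG array 1 or VSC_LG array 1 (adjusted p = 0.0532 and 0.051). AGO6 was lowest in the inner lower tier, at 2.21, 2.28 and 1.78, below the 3 EMB_16C arrays at 3.58, 3.00 and 2.53. That difference, -0.94 (SE 0.38), did not pass the test (adjusted p = 0.354), and 6.15% of all loci were lower there without overlap.

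AGO9 is known from the ovule, where it acts in the cells around the germ line, and on these arrays it was bright in every group. Its log2 intensity on the 4 EMB_EG arrays was 5.25, 4.94, 5.10 and 3.01. In GSC_EG it was 6.11, 6.43, 7.0 and 6.28, and in SUS_EG 6.93, 6.43 and 6.01. The EMB_EG mean, 4.57, was the lowest of the 11 groups, and the next lowest was QC_LG at 5.49. EMB_16C averaged 5.97 and EMB_LG 5.66. Every array of the ground tissue and the suspensor at 81 h was above every embryo array of that time. Of all loci, 3.91% in the ground tissue and 4.22% in the suspensor were likewise above the embryo without overlap. The AGO9 differences were 1.88 (SE 0.52, adjusted p = 0.0663) for the ground tissue and 1.88 (SE 0.56, adjusted p = 0.214) for the suspensor, and neither passed the test. EMB_EG array 4 stood far below its group, and without it the differences were 1.36 (adjusted p = 0.271) and 1.36 (adjusted p = 0.482). With the array's spread as a covariate the suspensor's difference passed the test (1.86, adjusted p = 0.0121), as did that of the vascular cells at 81 h (1.40, adjusted p = 0.0173, against 1.41 and 0.152 without it), and the ground tissue's did not. The 4 EMB_EG arrays were also low in the stress genes, whose mean was 3.05 to 3.51 there, against 5.34 to 6.76 in GSC_EG and 5.97 to 6.53 in SUS_EG. The stress mean was low too in EMB_16C, at 2.56 to 4.10, and in EMB_LG, at 3.06 to 3.64, where AGO9 was not as low. The part of the stress genes in the AGO9 values was not tested.

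AGO8, the nearest relative of AGO9 and a gene with little known expression, was dim. Its group means ran only from 2.15 ± 0.49 in GSC_LG to 2.77 ± 0.20 in VSC_LG, and no comparison of it passed the test. Across the 38 arrays its value fell as the array's spread widened (Pearson r = -0.77), while that of AGO9 went the other way (r = 0.67). AGO8 lay under the array median on 23 arrays and AGO9 above it on all 38. For AGO4 the r with the spread was 0.46, and for AGO6 0.10.

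AGO1, the main carrier of microRNAs and itself a target of miR168, was bright in all groups. Its log2 intensity was 6.65, 6.78 and 6.01 on the GSC_LG arrays and 4.83, 3.93 and 5.5 on the QC_LG arrays. All 3 QC_LG arrays were below all GSC_LG arrays. The difference, QC minus ground tissue, was -1.72 (SE 0.47, limma, adjusted p = 0.0371). Between these 2 groups 3 of 10 members were called, AGO1, AGO2 and AGO4, all lower in the QC, against 3.09% of all loci called in either direction. The AGO1 difference missed the threshold without QC_LG array 2 (-1.31, adjusted p = 0.228), GSC_LG array 2 (-1.57, adjusted p = 0.173), GSC_LG array 1 (-1.64, adjusted p = 0.107) or QC_LG array 1 (-1.76, adjusted p = 0.0534).

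Outside the late globular stage AGO1 had no called difference. The inner lower tier read 4.74, 4.36 and 5.35, below the EMB_16C arrays at 5.81, 5.47 and 5.54, where 6.15% of all loci were lower without overlap. In the vascular cells at 81 h it read 5.56, 3.40, 5.60 and 5.42, against 6.56, 6.65, 5.85 and 5.30 in EMB_EG. The vascular difference was -1.09 (SE 0.41, adjusted p = 0.161), and without VSC_EG array 2, the array at 3.40, it was -0.56 (adjusted p = 0.625).

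AGO10, also named PINHEAD or ZWILLE, binds miR165 and miR166 and keeps them from AGO1, which protects the HD-ZIP III transcripts. It was dimmer than the array median on 12 arrays, and its pattern was among those that varied over the groups. Its log2 intensity in GSC_LG was 3.81, 5.0 and 3.97, and in EMB_16C 3.63, 3.83 and 4.41. In the suspensor it was 2.17, 2.45 and 1.95 at 81 h and 2.76, 2.04 and 2.92 at 100 h. At 100 h all suspensor arrays were below all GSC_LG arrays, and 9.12% of all loci were lower there without overlap. In order of mean, GSC_LG (4.26 ± 0.65, n = 3), EMB_16C (3.96 ± 0.41, n = 3) and GSC_EG (3.50 ± 0.69, n = 4) led, SUS_LG (2.57 ± 0.47, n = 3) and SUS_EG (2.19 ± 0.25, n = 3) were last, and all 10 pairs of neighbours overlapped.

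At 100 h AGO10 was lower in the suspensor than in the ground tissue, by a difference of -1.68 (SE 0.42, 3.21-fold, limma, adjusted p = 0.0376). With AGO4, 2 of 10 members were called in that comparison, both lower in the suspensor, against 1.24% of all loci. The AGO10 difference missed the threshold without GSC_LG array 2 (-1.31, adjusted p = 0.293), GSC_LG array 3 (-1.83, adjusted p = 0.0624), or SUS_LG array 1 (-1.78, adjusted p = 0.0661), 2 (-1.42, adjusted p = 0.173) or 3 (-1.86, adjusted p = 0.0629). That of AGO4 missed it without GSC_LG array 2 (-1.71, adjusted p = 0.188), and without GSC_LG array 3 or any 1 of the SUS_LG arrays (-2.06 to -2.04, adjusted p = 0.0589 to 0.0725). The seed coat mean was 4.83 to 5.67 in SUS_LG and 3.89 to 3.98 in GSC_LG, and its part in these differences was not tested.

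At the earlier stages AGO10 had no called difference. The arrays of several pairs did not overlap, and the share of all loci lower without overlap is given for each. The inner lower tier, at 2.46, 2.64 and 2.68, lay below the embryo of the same time (difference -1.36, SE 0.42, adjusted p = 0.176; 6.15% of all loci). The EMB_EG arrays, at 2.69, 2.39, 3.16 and 2.47, lay below the EMB_16C arrays (difference -1.28, SE 0.40, adjusted p = 0.21; 4.06% of all loci). The suspensor at 81 h lay below the ground tissue of that time (difference -1.31, SE 0.40, adjusted p = 0.284; 3.62% of all loci). In the vascular cells, where AGO10 is known to be expressed, the intervals of its difference from the embryo spanned 0, with differences of 0.14 at 81 h (95% interval -0.60 to 0.89, adjusted p = 0.905) and -0.25 at 100 h (95% interval -1.0 to 0.49, adjusted p = 0.907).

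AGO5, a relative of AGO1 known from reproductive cells, had no called difference. Its group means ran from 3.68 ± 0.35 in VSC_EG to 4.89 ± 0.78 in SUS_LG, where the arrays read 4.06, 5.60 and 5.02. The suspensor at 100 h overlapped with the embryo, at 4.21, 3.98, 3.22 and 3.45, and the difference of 1.18 (SE 0.44) did not pass the test (adjusted p = 0.265). In GSC_LG it read 4.57, 5.20 and 4.44, above all EMB_LG and QC_LG arrays, with differences that also missed the threshold.

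AGO2, which is induced in antiviral defence and after DNA damage and is a target of miR403, had its highest group mean in the late ground tissue. It read 6.02, 5.23 and 4.90 in GSC_LG, 3.32, 4.08 and 4.24 in QC_LG, and 3.57, 3.67, 3.92 and 3.84 in EMB_LG. All GSC_LG arrays were above all QC_LG and EMB_LG arrays. They overlapped with the vascular cells of that time, VSC_LG, the next highest group by mean, at 5.54, 4.37, 3.90 and 5.39. The QC was lower than the ground tissue by -1.50 (SE 0.43, 2.84-fold, limma, adjusted p = 0.0455), and the ground tissue's difference from the embryo, 1.63 (SE 0.40), missed the threshold (adjusted p = 0.0535). The first of these also missed it without GSC_LG array 1 (-1.18, adjusted p = 0.199) or 2 (-1.58, adjusted p = 0.118), or QC_LG array 1 (-1.22, adjusted p = 0.137), 2 (-1.60, adjusted p = 0.0921) or 3 (-1.69, adjusted p = 0.0603), and without 3 arrays of other groups (adjusted p = 0.0505 to 0.0527). The 8 stress genes averaged 4.86 to 5.48 in GSC_LG, 3.33 to 4.28 in QC_LG and 3.06 to 3.64 in EMB_LG. In VSC_LG they averaged 4.95 to 6.79, with an AGO2 mean of 4.80. In GSC_EG and SUS_EG they averaged 5.34 to 6.76 and 5.97 to 6.53, with AGO2 means of 4.41 and 4.36, against 5.38 in GSC_LG. The part of the stress genes in the AGO2 values was not tested.

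AGO3 lies next to AGO2, with 0 protein-coding genes between them in the reference annotation, and is its closest relative. It was the most variable member within groups, with a pooled SD of 1.11. Its log2 intensity was 5.69, 5.33 and 7.15 in the inner lower tier and 4.72, 2.66 and 2.78 in EMB_16C. The groups did not overlap, as for 5.58% of all loci in that direction, and the difference of 2.67 (SE 0.83) did not pass the test (adjusted p = 0.176). At 100 h it read 5.60, 7.86 and 7.08 in the suspensor and 5.24, 5.43, 4.40 and 3.04 in the embryo, again without overlap (difference 2.32, SE 0.78, adjusted p = 0.18). Of all loci, 5.01% were higher in that comparison without overlap. Single vascular arrays at that time ran from 4.11 to 8.34. Over the 11 group means AGO2 and AGO3 had r = 0.55, and within groups, as deviations from the group mean, r = -0.21. Whether probes of close relatives such as AGO2 and AGO3 or AGO8 and AGO9 also bind each other's RNA was not tested, since the labels do not describe the probe sets.

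AGO7 carries miR390, which starts the trans-acting small interfering RNAs of the TAS3 loci, and these lower ARF2, ARF3 and ARF4. It was even on the GSC_LG arrays, at 4.42, 4.10 and 4.04. The QC_LG arrays, at 3.15, 3.39 and 2.75, the SUS_LG arrays, at 3.18, 3.52 and 3.20, and the EMB_LG arrays, at 3.07, 3.08, 2.46 and 3.67, were all below these. None of the 3 differences passed the test, and that from the embryo was 1.12 (SE 0.53, adjusted p = 0.37). The VSC_LG arrays, at 2.40, 2.56, 3.65 and 4.40, overlapped with GSC_LG, and GSC_EG array 4, at 4.55, was above all GSC_LG arrays. In the vascular cells at 81 h the arrays split widely, at 2.40, 5.01, 4.55 and 2.43, and the suspensor of that time, at 2.76, 2.34 and 1.52, had the lowest mean.

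Over the 25 comparisons of pairs of groups, 8 of 250 tests of members were called, 3.2%, against 0.726% of all tests of all loci, and 5 of 10 members were called at least once, against 9.91% of all loci. The 250 tests share arrays and are not independent. All 8 calls involved groups at 100 h, and 7 of them the 3 GSC_LG arrays. At an unadjusted p under 0.05 there were 55 of 250, against 11% of all tests of all loci. Against GSC_LG, the QC arrays did not overlap and were lower for 6 of 10 members (AGO1, AGO2, AGO4, AGO5, AGO7 and AGO10), where 10% of all loci were; the suspensor arrays for 4 (AGO2, AGO4, AGO7 and AGO10), where 9.12% were; and the vascular arrays for 3 (AGO4, AGO6 and AGO10), where 7.64% were. Above the embryo at 100 h without overlap were 4 members in the ground tissue (AGO2, AGO3, AGO5 and AGO7), where 5.76% of all loci were, and 0 of 10 were called there, against 0.449% of all loci.

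The median difference of the 10 members was 0.68 for GSC_LG against GSC_EG, where the median of all loci was -0.02. It was 0.87 for GSC_LG against EMB_LG (all loci -0.10), -0.71 for VSC_LG against GSC_LG (all loci 0.11), -0.80 for SUS_LG against GSC_LG (all loci 0.10) and -1.11 for QC_LG against GSC_LG (all loci 0.12). The members did not move as a block: AGO8 was higher in the QC than in the ground tissue by 0.49, and AGO3 higher in the suspensor by 1.08, neither of which passed the test.

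**Figure D2:**
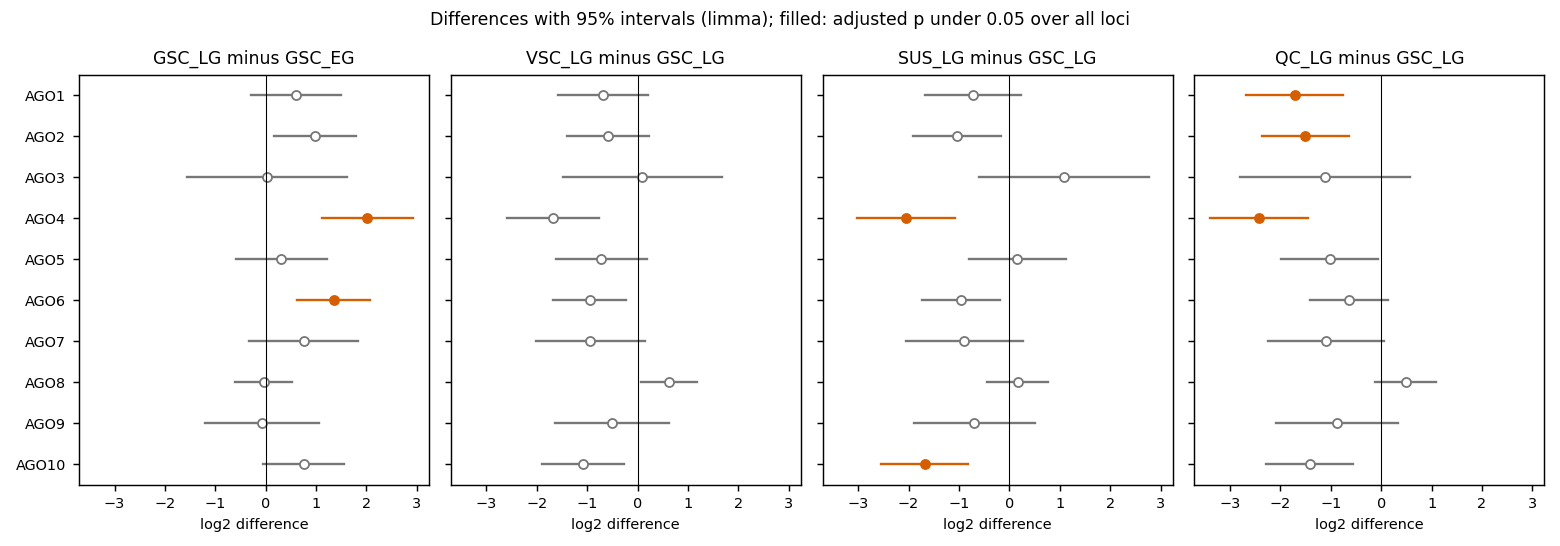
Points are log2 differences for the 10 ARGONAUTE genes in 4 comparisons that share the GSC_LG arrays, with 95% intervals from limma; filled points have an adjusted p under 0.05. AGO4 is called in 3 of the 4 panels, at 2.02, -2.05 and -2.42.

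The GSC_LG arrays also had the widest mean spread of their time, 1.79, and the QC_LG, SUS_LG, VSC_LG and EMB_LG arrays lay between 1.03 and 1.59. With the array's spread as a covariate, 5 of the 8 calls ended: AGO1 (-1.23, adjusted p = 0.359), AGO2 (-1.49, adjusted p = 0.199) and AGO4 (-1.43, adjusted p = 0.125) in the QC against the ground tissue, and AGO4 (-1.30, adjusted p = 0.118) and AGO10 (-1.36, adjusted p = 0.165) in the suspensor against the ground tissue. Of all loci, 0.237% and 0.557% were then called in these 2 comparisons. The rises of AGO4 and AGO6 (1.32, adjusted p = 0.0419) in the ground tissue and the lower AGO4 in the QC than in the embryo (-1.58, adjusted p = 0.00934) passed the test with the covariate too. The AGO6 rise missed the threshold after quantile normalization (1.15, adjusted p = 0.137), median centring (1.36, adjusted p = 0.0513) and with an intensity trend (1.35, adjusted p = 0.0516). The covariate also gave 4 calls not made without it: AGO9 in the suspensor and in the vascular cells against the embryo at 81 h, as above, AGO4 lower in the suspensor than in the embryo at 100 h (-1.45, adjusted p = 0.0218), and AGO4 higher in the vascular cells at 100 h than at 81 h (1.45, adjusted p = 0.0226). Spread and group are partly tied at 100 h, since GSC_LG arrays lay at 1.51 to 2.06 and QC_LG arrays at 1.03 to 1.42.

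**Figure D3:**
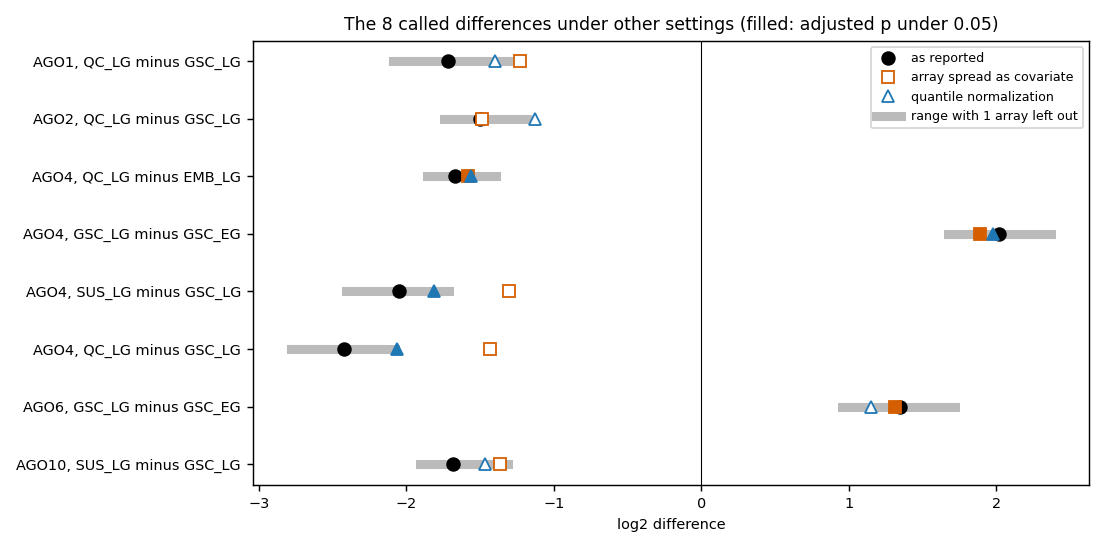
The horizontal axis is the log2 difference and each line 1 of the 8 called differences; circles are the values as reported, squares those with array spread as a covariate, triangles those after quantile normalization, and grey bars the range when 1 array is left out. All symbols of a line lie on 1 side of 0, and open symbols, with an adjusted p of 0.05 or more, stand for 5 of the 8 squares.

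For the vascular cells, the ground tissue and the suspensor, the gap to the embryo at 100 h was also compared with the gap at 81 h. By limma 0 of 30 tests of members passed, where 0.0024% of all tests of all loci passed. At an unadjusted p under 0.05 there were 3 of 30, against 6.93% of all tests. These 3 were AGO1 in the vascular cells (1.31, adjusted p = 0.575), AGO4 in the suspensor (-1.53, adjusted p = 0.698) and AGO9 in the suspensor (-1.86, adjusted p = 0.717).

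Few of the other genes of the small RNA pathways were called. Of 16 genes of microRNA biogenesis, 1 passed the F test over the groups: SE, which helps DCL1 to cut precursors (adjusted p = 0.00685). Over the 25 comparisons 1 of 400 tests was called, that of SDN1, which degrades microRNAs, higher in the vascular cells than in the embryo at 81 h by 1.87 (SE 0.44, adjusted p = 0.0214, against 2.15% of all loci called). Of 7 genes of secondary small interfering RNAs, SGS3, which stabilises the template for RDR6, was lower than in the ground tissue at 100 h in the vascular cells (-1.52, SE 0.38, adjusted p = 0.0387) and in the QC (-1.59, SE 0.41, adjusted p = 0.0245), and these were 2 of 175 tests. Of 21 genes of RNA-directed DNA methylation other than ARGONAUTEs, 0 passed the F test and 0 of 525 tests were called. In the ground tissue between 81 h and 100 h, where AGO4 and AGO6 rose, those 21 had a median difference of 0.45 and ran from -0.71 to 1.70, with 16 above 0.

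Among 8 known targets downstream of AGO1, AGO7 and AGO10, PHB, CNA and ARF3 varied over the groups by the F test (adjusted p = 0.00802, 0.0128 and 1.12e-05). PHB, an HD-ZIP III gene, read 5.0, 6.06 and 6.16 in GSC_LG, 4.16, 2.53 and 3.96 in SUS_LG, and 4.53, 2.76 and 3.59 in QC_LG. It was lower than in the ground tissue in the suspensor (-2.19, SE 0.51, adjusted p = 0.0237) and in the QC (-2.11, SE 0.51, adjusted p = 0.0179), which are also comparisons in which members of the family were called. ARF3, a target of the TAS3 small RNAs, read 5.34, 5.55 and 5.54 in GSC_LG and 2.91, 2.68, 3.59 and 2.15 in GSC_EG. The groups were far apart, and ARF3 rose between them by 2.65 (SE 0.34, adjusted p = 3.80e-05). It was called in 6 of the 25 comparisons, 5 of them with GSC_LG, and 9.91% of all loci were called at least once. The calls of SGS3, PHB and ARF3 were not checked with the spread as a covariate or with arrays left out. With that covariate the share of all loci called against GSC_LG fell from 3.09% to 0.237% in the QC. It fell from 1.24% to 0.557% in the suspensor and from 1.24% to 0.0611% in the vascular cells. For GSC_LG against GSC_EG it went from 1.47% to 1.79%.

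AGO10 ran with some of the HD-ZIP III genes over the 11 group means. Pearson's r was 0.92 with PHB, 0.90 with CNA and 0.77 with REV, but 0.44 with PHV and 0.31 with ATHB8. Values above that of REV, but below those of PHB and CNA, were found outside these pairs. AGO10 had r = 0.82 with ARF4, and AGO5 had r = 0.81 with ARF2. AGO6 had r = 0.79 with ARF3, 0.79 with ARF4 and 0.78 with PHB, and AGO4 had r = 0.78 with ARF3. In the opposite direction AGO8 had r = -0.90 with ARF2, as large in size as that of AGO10 with CNA. These are descriptions over means that share arrays and their spread. Without the GSC_LG group the r of AGO10 was 0.87 with PHB, 0.95 with CNA and 0.68 with REV, and turned to -0.05 with PHV and -0.12 with ATHB8. Within groups, over the deviations of the 38 arrays, it was 0.65 with PHB and 0.07 with CNA. For AGO4, of the DNA methylation clade, the r with PHB was 0.77 over 11 means and 0.52 without GSC_LG.

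**Figure D4:**
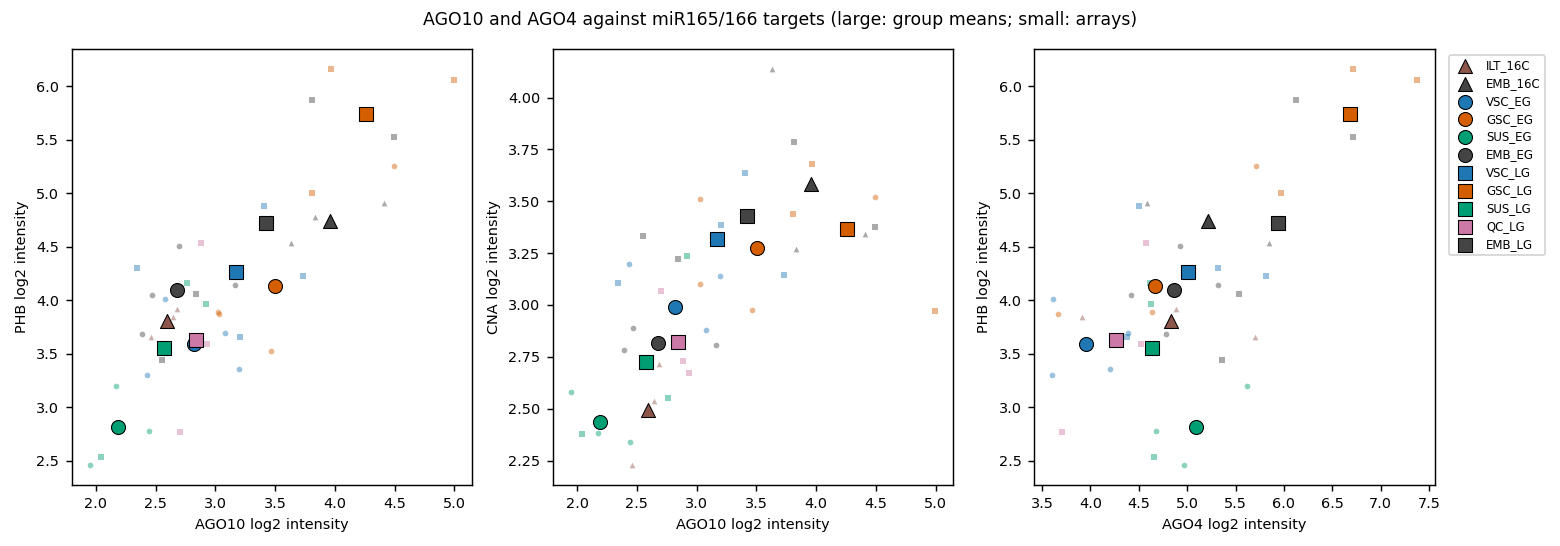
Log2 intensity of AGO10 against PHB and against CNA, and of AGO4 against PHB; large symbols are the 11 group means and small ones the 38 arrays, with colour for the cell type and shape for the stage. Over the means, AGO10 and PHB rise together (r = 0.92) from the early suspensor to the late ground tissue, and AGO4 and PHB less closely (r = 0.77).

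Among the members themselves, the group means of AGO6 and AGO10 (r = 0.73), AGO7 and AGO10 (0.70), AGO4 and AGO6 (0.65) and AGO1 and AGO4 (0.65) were the most alike, and those of AGO5 and AGO8 the most opposed (-0.79). Out of 6175 other loci with a symbol and a mean above that of the median locus, the patterns most like that of AGO4 over the 11 means were those of CR88 (r = 0.96), RHL2 (0.93) and NAP1;1 (0.93). For AGO10 they were CSLD5 (0.94), PHB (0.92) and PLE (0.92). CR88 is a chaperone of the plastid, RHL2 a subunit of a DNA topoisomerase, NAP1;1 a histone chaperone, CSLD5 a cell wall synthase of dividing cells, and PLE a microtubule protein of the cell plate.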

How the data were processed

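Nuclear RNA of 38 pooled samples was amplified as cDNA, labelled with biotin and hybridised to 1-colour arrays, per the labels' protocols. The deposited intensity values are linear; the authors used RMA, as the submitters' processing notes say, and its version, the probe sets and the genome build are not stated. RMA is meant to even out the distributions of arrays, although the deposited arrays differed in spread, so that a change in the total RNA of a nucleus is lost, and dim loci such as AGO8 are pressed towards a difference of 0. No detection calls were used here.

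Values were taken to log2 with no added constant. All 38 arrays entered 1 fit of 11 group means in limma (3.58.1, R 4.3.3), with eBayes and no covariate (27 residual degrees of freedom, prior 6.79, typical SD 0.50). The tests were the F test over the groups, 25 pairs of groups and 3 differences between stages, each two-sided and adjusted (Benjamini-Hochberg) over 27826 loci; called means an adjusted p under 0.05. Replicates were separate pools, so p-values measure the spread between pools, and 3 or 4 arrays a group limit the precision. No 2 arrays were duplicates (highest correlation 0.896). Figures were drawn with matplotlib 3.10.9 in Python 3.11.15.

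The members and lists were chosen with earlier results of these data known. All 10 members are described. From each other list the rule named up to 4 called genes per comparison, by smallest adjusted p. For each member past the F test it named the 3 loci most alike in group means. REV, PHV, ATHB8, ARF4, and the markers SCR, WOX5 and PLT2 were added after their values were seen. CNA and SE, which passed the F test only, and the markers BAN, TT4, TT10, TT16, WOX8 and WOX9 are also named outside the rule. All 102 loci of the lists were on the array, and 27241 of all loci matched the RefSeq table (TAIR10.1), used for names and neighbours only. No sequences were used here. Alternatives were quantile normalization, centring on the array median, a filter on loci under the 25th percentile, array weights, an intensity trend, a replicate block, array spread as a covariate, log2(value + 1), fits of only the arrays compared, and each array left out. The fit was tested on simulated data.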

Additional observations from a re-analysis of the deposited data

Results flagged for a closer look

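In 50 groups of 4 arrays, 1 for each member and group of that size, 4 arrays stood apart from the others of their group by Dixon's test at its 95% critical value. Chance gives about 5% of such groups. AGO1 was 3.40 on VSC_EG array 2, where the next lowest array was at 5.42. AGO6 was 2.65 on EMB_LG array 2, with the next at 3.37. AGO7 was 3.15 on EMB_EG array 4, where the next highest array was at 2.58, and the same array held AGO9 at 3.01, with the next lowest at 4.94. Without these arrays the AGO1 difference of vascular cells from the embryo at 81 h was -0.56 (limma, adjusted p = 0.625, against -1.09), the AGO9 difference of ground tissue from the embryo at 81 h 1.36 (adjusted p = 0.271, against 1.88), and the AGO6 difference of ground tissue from the embryo at 100 h 0.21 (adjusted p = 0.867, against 0.41).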

How the results depend on the processing

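AGO4 and AGO10 passed the F test under all 47 other settings run for it (adjusted p up to 0.027 and 0.0375), AGO6 under 11, AGO2 under 3 and AGO9 under 1, and the other members under 0. The count of members passing, 2 as reported, was 4 with array weights and 4 with array spread as a covariate, and 2 to 3 with 1 array left out. The 8 called differences kept their direction in every setting run. The count of called differences of members, those gained included, was 4 after quantile normalization, 4 with an intensity trend, 0 with only the arrays of each pair of groups fitted (54 of 250 at an unadjusted p under 0.05; 1961 calls over all loci), 1 without both GSC_LG array 2 and QC_LG array 2 (chosen after seeing the data), and 1 to 11 with 1 array left out. Of the 8 themselves, those settings kept 4, 4, 0, 0 and 1 to 8; the 1 call without both arrays was AGO9 in the ground tissue against the embryo at 81 h (1.88, adjusted p = 0.0364). Quantile normalization ended the calls of AGO1, AGO2, AGO6 and AGO10, the intensity trend those of AGO1, AGO2, AGO6 and of AGO4 in the QC against the embryo, centring those of AGO6 and of AGO4 in the QC against the embryo, and array weights those of AGO1 and of AGO4 in the QC against the embryo. It was lowest without GSC_LG array 2. It was 5 without GSC_EG array 1, EMB_EG array 1 or any 1 of the SUS_LG arrays and 3 without GSC_LG array 3; the fits without arrays had fewer samples, and the cause was otherwise not tested. The lower AGO4 in the QC than in the embryo missed the threshold without any 1 of 18 arrays, 5 of them in the groups compared (lowest size without QC_LG array 2, -1.39, adjusted p = 0.202) and 13 outside (adjusted p = 0.0508 to 0.0558). Of the differences just short of the threshold, that of AGO4 in vascular cells from ground tissue at 100 h was called in 18 of 48 other settings, that of AGO2 in ground tissue from the embryo in 8, and those of AGO10 in the QC and AGO9 in the early ground tissue in 4 each. The 30 tests between stages gave 0 calls in all settings. With the replicate number as a block, 8 differences were called. AGO4 in the vascular cells against the ground tissue was gained (limma, adjusted p = 0.0447) and AGO2 in the QC lost (adjusted p = 0.0569). Arrays with the same number did not in general deviate together (median r = -0.0014, range -0.148 to 0.208 over 175 pairs). Of the 38 arrays, 13 were closest to their own number. No general pairing by number was seen, but these values cannot tell whether some groups share one.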
